A study of Mus musculus with 8 samples.

Results

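The sites described here are all replication initiation sites (ISs) on chromosome 16 of the mouse, 2174 of the 39116 ISs in the merged table of Rif1KO against WT and 4972 of the 129937 ISs in the merged table of Rif1KO_shMcm6 against Rif1KO_shLacZ. Chromosome 16 was chosen by its measured fold changes in Rif1KO against WT, so its values in that contrast are a description and carry no test. No IS was removed by a filter. The comparison was with the 16 autosomes other than 10, 15 and 16 (the reference autosomes), which held 31414 and 108860 ISs. The same rule set chromosomes 10 and 15 aside. All cells were CH12, a mouse B cell lymphoma line, kept in medium that stimulates them through IL4, CD40 and TGF beta. The paper's methods give RPMI with serum for CH12 and name none of these stimuli for them. There were 2 libraries in each of 4 groups: WT, Rif1KO, and Rif1KO cells selected with puromycin after infection with a lentivirus whose hairpin targeted LacZ as a control (Rif1KO_shLacZ) or Mcm6 (Rif1KO_shMcm6). Replicates were separately thawed vials of cultured cells and not a set of animals. The paper describes 2 independent Rif1-deficient clones of CH12, and does not name the clone or clones behind these libraries. The sources used here do not say whether the Rif1KO cells with and without hairpins came from the same clone or culture. DNA content of chromosome 16 was not measured here, since peaks were called without an input library, and a change in initiation and a change in the number of copies of the chromosome cannot be told apart in these values.

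Short nascent strand sequencing (SNS-seq) sequences the short leading strands made just after an origin fires, so the read density at an IS follows how often replication starts there across the cells. RIF1 recruits protein phosphatase 1 to chromatin and opposes the kinases that activate origins, and it shapes the order in which domains replicate. MCM6 is a subunit of the MCM helicase that is loaded on DNA at every potential origin. Each density is given as log2 RPM, the log2 of reads per 1000000 reads inside the ISs of the same table, with 1 value per group that pools both libraries. Error is therefore given as a counting interval or as the spread over ISs, and neither is replicate error. In the Rif1KO table the median chromosome 16 IS held 62 WT reads and 86 Rif1KO reads. In the hairpin table it held 134 Rif1KO_shLacZ reads and 155 Rif1KO_shMcm6 reads.

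Most chromosome 16 ISs held a G-rich stretch. A motif of 4 runs of GGG set 1 to 7 bases apart, searched on both strands, lay in 74.8% of the ISs of the Rif1KO table and in 77.7% of those of the reference autosomes. It lay in 8.42% of windows of the same length 5 kb downstream of the chromosome 16 ISs. On chromosome 16 the median log2 fold change in Rif1KO against WT was 0.325 with the motif and 0.366 without it. Higher by over 1.5-fold were 13.7% and 16.4%. On the reference autosomes the medians were 0.0089 and 0.0064, and the shares 0.705% and 1.78%. The IS with the highest mean density on chromosome 16, an intergenic site 92642 bp from the nearest transcription start site (TSS), of the potassium channel gene Kcnj6, and the intergenic ISs with rank 1 and rank 3 by fold change in Rif1KO, among ISs at or above the median density, are printed to set a dense site beside sites of high fold change. Capitals mark the motif, and all coordinates are mm9.
Densest IS, chr16:95312263-95312462, plus strand: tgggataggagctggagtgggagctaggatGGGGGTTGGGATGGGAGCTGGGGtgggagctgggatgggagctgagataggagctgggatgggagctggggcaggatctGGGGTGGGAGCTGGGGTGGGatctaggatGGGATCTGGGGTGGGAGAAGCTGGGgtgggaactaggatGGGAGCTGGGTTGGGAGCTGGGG
Rank 1 by fold change in Rif1KO, chr16:71506900-71507099, minus strand: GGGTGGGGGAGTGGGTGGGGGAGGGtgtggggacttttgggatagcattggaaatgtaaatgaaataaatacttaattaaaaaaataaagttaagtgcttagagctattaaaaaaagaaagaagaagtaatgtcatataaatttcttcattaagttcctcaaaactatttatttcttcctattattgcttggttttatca
Rank 3 by fold change in Rif1KO, chr16:54514837-54515036, plus strand: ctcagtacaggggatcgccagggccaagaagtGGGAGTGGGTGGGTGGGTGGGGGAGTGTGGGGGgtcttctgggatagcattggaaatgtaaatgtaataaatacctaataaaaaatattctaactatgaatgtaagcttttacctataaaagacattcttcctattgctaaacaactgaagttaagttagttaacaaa
The densest IS was a tandem array in which the motif recurred, with 91 of 200 bases in capitals. The IS of rank 2 by fold change, not printed, did not hold the motif. Both printed ISs of high fold change held 1 G-rich run, of 25 and 33 bases in capitals, at the border of AT-rich sequence. They also shared a run of 25 bases, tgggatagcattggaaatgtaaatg, just after the G-rich part. This run and the motif were chosen after sequences were seen, and the run resembles the 3′ end of mouse LINE-1 elements. No repeat annotation was used here, and only reads that aligned to 1 place were kept upstream. It occurred in 79 of the 2174 chromosome 16 ISs of the Rif1KO table (3.63%) and in 0.184% of the windows 5 kb away. With it, the median log2 fold change in Rif1KO was 0.39 on chromosome 16, and without it 0.33. The same split on the reference autosomes gave 0.10 and 0.0055. Among the ISs after hairpin infection, 247 on chromosome 16 held the run, and 2 of them were higher by over 1.5-fold in Rif1KO_shMcm6 (0.81%), against 5.61% of the ISs without it. The reference autosomes gave 1.15% of 4428 ISs with the run and 4.98% without it, so a low share at such ISs was not particular to chromosome 16.

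Nearly the whole of chromosome 16 had a higher density in Rif1KO than in WT. The median log2 density was 4.21 in WT and 4.53 in Rif1KO, while that of the reference autosomes was 4.45 and 4.44. The median log2 fold change was 0.33 (95% interval over ISs 0.32 to 0.34), a 1.26-fold change, and 2014 of 2174 ISs (92.6%) lay above 0. On the reference autosomes the median was 0.0077 and 51.4% of ISs lay above 0. The medians of the 16 reference autosomes ran from -0.03 on chromosome 7 to 0.05 on chromosome 3. Chromosome 16 had the highest median of the 19 autosomes. In WT it had the lowest median density of all 19, and in Rif1KO it stood at rank 4 from the highest. The WT median includes the 64.2% of chromosome 16 ISs listed in Rif1KO only. There it was 3.98, against 4.63 at those listed in both groups. The distribution was moved and not widened, with an SD of log2 fold change of 0.25 over ISs both on chromosome 16 and on the reference autosomes. Its quartiles were 0.17 and 0.49, against -0.15 and 0.16 on the reference autosomes.

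**Figure D1:**
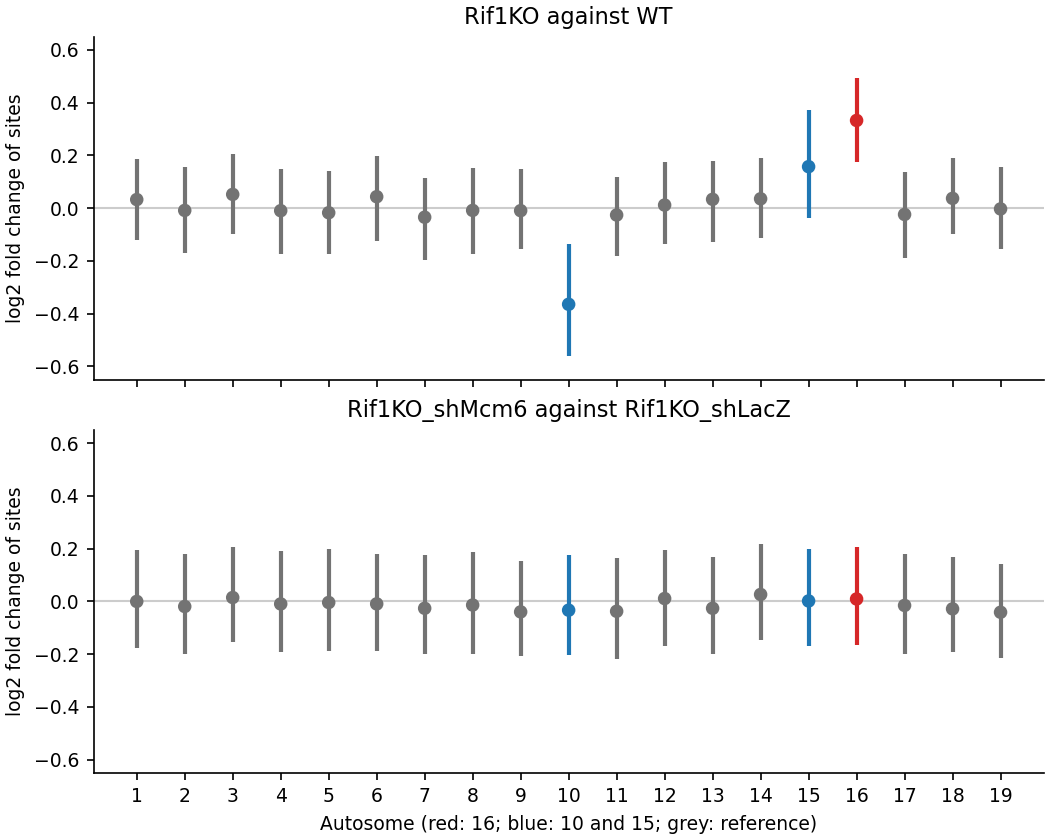
Median log2 fold change of the ISs of each autosome (points) with the quartiles over ISs (bars), in Rif1KO against WT (top) and in Rif1KO_shMcm6 against Rif1KO_shLacZ (bottom). Chromosome 16 lies at 0.33 in the upper panel, above the reference range of -0.03 to 0.05, and at 0.0091 in the lower panel, inside the reference range of -0.04 to 0.03.

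Few of these ISs moved far. On chromosome 16, 312 ISs (14.4%, Wilson 95% interval 12.9% to 15.9%) were higher in Rif1KO by over 1.5-fold, where 0.945% of reference ISs and 2.27% of all ISs were. Only 3 (0.138%) were lower by over 1.5-fold, against 1.35% of reference ISs and 2.7% of all ISs. A share past a fixed fold follows from a shifted centre, and once the chromosome 16 median was set to 0 the shares became 0.966% higher and 1.06% lower. The chromosome 16 ISs stood out as a whole body of small differences and not through a set of strongly changed sites.

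Among the 949 chromosome 16 ISs at or above the median density of the table, the 3 with the highest fold change were AT-rich and intergenic. The first of them, a site of 665 bp at 71506435 to 71507099 with no protein-coding TSS within 500 kb and a GC content of 30.2%, went from 56 reads in WT to 128 in Rif1KO, or 4.06 to 5.10 log2 RPM (log2 fold change 1.04 ± 0.23, counting SE). An intergenic IS 9543 bp from the TSS of Cyyr1, at 85560205 to 85560797, held 54 and 119 reads (0.99 ± 0.24). A gene-desert IS at 54514837 to 54515672 held 76 and 160 reads (0.92 ± 0.20). All 3 were in the list of ISs of Rif1KO and not in that of WT. A list keeps only clustered peaks found in both replicates, so a peak in a single WT replicate is not excluded. In the hairpin table the same places held 169 Rif1KO_shLacZ and 222 Rif1KO_shMcm6 reads, 164 and 193 reads, and 260 and 338 reads, with log2 fold changes of 0.23, 0.07 and 0.21.

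Among the same 949 ISs, the 3 with the lowest fold change were richer in GC. A promoter IS of 1810013L24Rik at 8830038 to 8830579, over exon, UTR and upstream sequence with a GC content of 76.6%, held 99 WT and 73 Rif1KO reads (-0.59 ± 0.22). Next came an intergenic IS at 18196882 to 18197304, with 30 protein-coding TSSs within 500 kb and 91 and 80 reads (-0.34 ± 0.22). An intergenic IS at 84538214 to 84538957 held 129 and 115 reads (-0.32 ± 0.19). The 2 densest ISs moved less than the chromosome as a whole. The array near Kcnj6 held 552 WT and 701 Rif1KO reads (0.19 ± 0.08). The promoter IS of Dopey2 at 93711373 to 93712245, over exon, UTR and upstream sequence, held 341 and 393 reads (0.05 ± 0.11).

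The difference from the reference autosomes was of nearly the same size in all classes of gene context, GC content, density, width and gene number. For promoter ISs, within 1 kb of a protein-coding TSS, the median was 0.15 on chromosome 16 (79 ISs) and -0.13 on the reference autosomes. For other ISs inside protein-coding genes the medians were 0.30 (659 ISs) and -0.0084. For intergenic ISs they were 0.36 (1436 ISs) and 0.04. Fold change therefore ran from promoters up to intergenic sequence on both, and chromosome 16 stayed above the reference at each step. The same held by GC content, where the medians from the lowest to the highest tercile were 0.39, 0.32 and 0.24 on chromosome 16 and 0.10, 0.01 and -0.07 on the reference autosomes. Terciles of mean density, width and number of genes within 500 kb, with gene context and GC content, made 15 classes in all, and the chromosome 16 median exceeded the reference median by 0.29 to 0.34 in each of them. Chromosome 16 held fewer promoter ISs than the reference autosomes (3.63% against 6.67%) and more intergenic ISs (66.1% against 57.1%), and its median GC content was 44.4% against 47.3%. Spearman's rho between fold change and GC content was -0.26 over the 2174 ISs and -0.32 over the reference ISs, a description across ISs that share the same libraries.

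**Figure D2:**
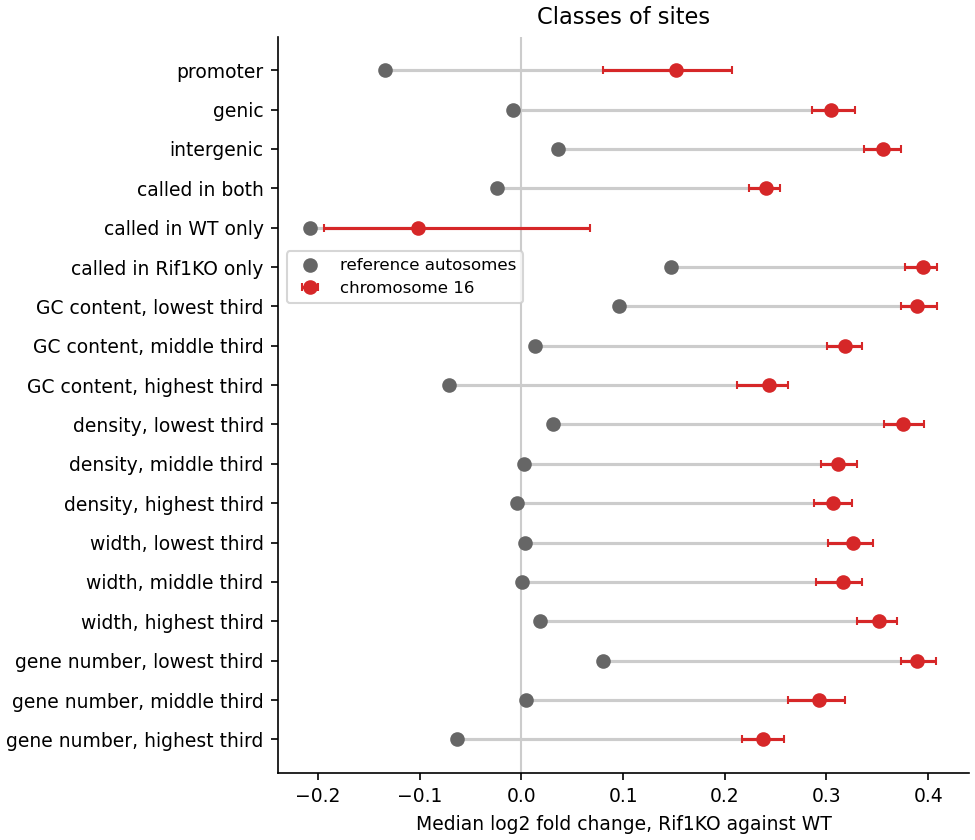
Median log2 fold change in Rif1KO against WT for classes of ISs, on chromosome 16 (red, bars are 95% order-statistic intervals over ISs) and on the reference autosomes (grey). The red points lie to the right of the grey points in every class, by 0.29 to 0.34 in the classes of context, GC content, density, width and gene number.

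The way an IS was called, meaning the list or lists of ISs it came from, mattered more. Of the chromosome 16 ISs, 1396 (64.2%) were called in Rif1KO only, against 33.3% on the reference autosomes, and 61 (2.81%) in WT only, against 13.6%. ISs called in both groups, 717 on chromosome 16, had a median of 0.24 against -0.02 on the reference autosomes, a gap of 0.26. The gap was 0.25 for ISs called in Rif1KO only and 0.11 for those called in WT only, where the chromosome 16 median was -0.10 with an interval of -0.19 to 0.07. ISs enter the table by being called in either group, so the makeup of the table follows the difference in density it is used to measure.

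A step back to the peaks of single replicates gave the only values with 2 libraries per group. The names of the peaks in the lists carry their running number in the peak file of each replicate, which bounds the number called on each chromosome before the replicates were intersected and clustered. Chromosome 16 held at least 3.43% and 3.38% of the peaks in the WT replicates (1604 of 46818 and 1571 of 46482) and at least 5.56% and 5.38% in the Rif1KO replicates (3137 of 56402 and 3245 of 60299). The upper bounds were 3.47%, 3.43%, 5.58% and 5.40%. The shares were 3.77% and 3.75% in Rif1KO_shLacZ and 3.79% and 3.79% in Rif1KO_shMcm6. Both Rif1KO replicates thus lay above the other 6 libraries, and WT lay lowest. No test was run, since this contrast chose the chromosome. Per Mb, WT had 16.3 and 15.98 peaks on chromosome 16 against 18.1 and 17.9 on the reference autosomes, and Rif1KO had 31.9 and 33.0 against 21.5 and 23.0.

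The size of the difference depended on the measure. In Rif1KO over WT, the share of chromosome 16 was 1.24 times as large in reads at the ISs found in both tables, 1.61 times in replicate peaks and 2.09 times in the lists of ISs. The lists held 778 chromosome 16 ISs in WT (3.01%), 2113 in Rif1KO (6.29%), 3793 in Rif1KO_shLacZ (3.77%) and 4469 in Rif1KO_shMcm6 (3.86%). In Rif1KO, 67.4 and 65.1 ISs were kept per 100 peaks of each replicate on chromosome 16, against 58.9 and 55.0 on the reference autosomes. In WT the order was opposite, 48.5 and 49.5 against 54.4 and 54.9. The same ratios for Rif1KO_shMcm6 over Rif1KO_shLacZ were 1.02, 1.01 and 1.02.

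**Figure D3:**
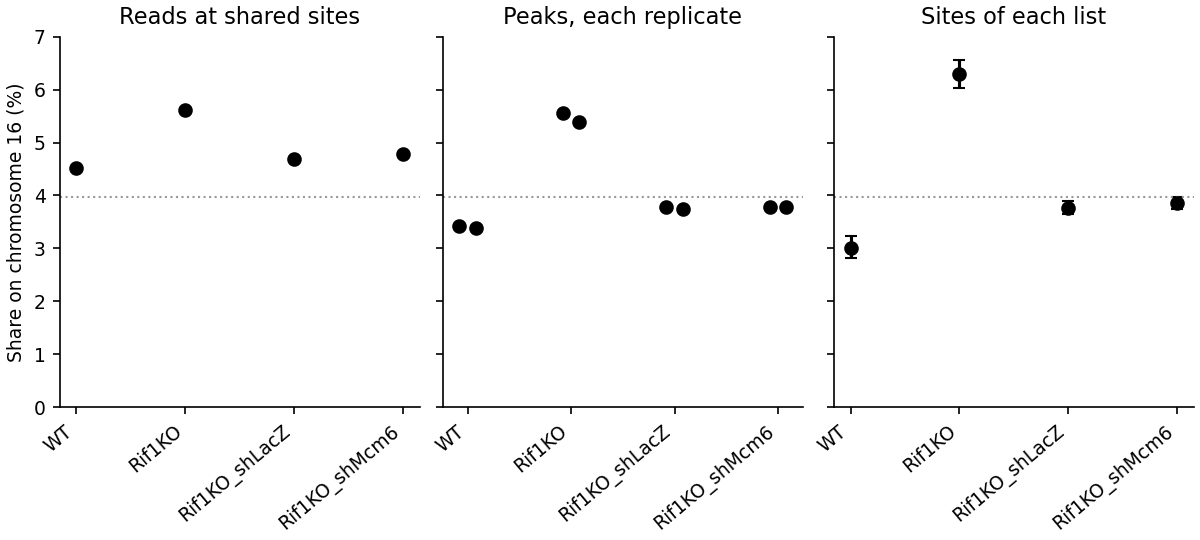
Share of chromosome 16 in each group, in reads at the 1735 ISs found in both tables (left), in the peaks of each replicate (middle, lower bounds, 1 point per library) and in the list of ISs (right, Wilson 95% intervals). The dotted line is the share of chromosome 16 in the length of the autosomes, 3.98%. Rif1KO stands highest in all 3 panels, at 5.61% of reads, 5.56% and 5.38% of replicate peaks and 6.29% of listed ISs.

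Of the 778 WT ISs on chromosome 16, 92.2% overlapped a Rif1KO IS, against 79.6% on the reference autosomes. In the other direction, a WT IS was found at 33.9% of the 2113 Rif1KO ISs, against 61.5% of those on the reference autosomes. Most of the ISs called in Rif1KO only were found again in the hairpin lists, which are deeper. Of those 1396, 1025 (73.4%) overlapped an IS of Rif1KO_shLacZ and 1041 (74.6%) an IS of Rif1KO_shMcm6, and the shares on the reference autosomes were 77.4% and 76.5%.

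In the Rif1KO cells that carried hairpins, chromosome 16 as a whole lay nearer to WT than to Rif1KO. At the 1735 chromosome 16 ISs that matched 1 IS of the other table, the chromosome took 4.52% of autosomal reads in WT, 5.61% in Rif1KO, 4.68% in Rif1KO_shLacZ and 4.79% in Rif1KO_shMcm6. The tables were scaled separately, so differences between them are given relative to the median of the 25514 matched reference ISs. The chromosome 16 median was 0.32 for Rif1KO against WT (0.31 to 0.34), 0.025 for Rif1KO_shLacZ against WT (-0.0072 to 0.044) and 0.038 for Rif1KO_shMcm6 against WT (0.011 to 0.067). For Rif1KO_shLacZ against WT the reference autosomes ran from -0.077 on chromosome 7 to 0.13 on chromosome 12, and chromosome 16 lay inside that range. These 3 comparisons share the WT libraries. Against Rif1KO, the medians were -0.32 for Rif1KO_shLacZ and -0.29 for Rif1KO_shMcm6, below the reference autosomes, which ran from -0.03 to 0.14 and from -0.08 to 0.16. The Rif1KO and WT libraries were both used in choosing the chromosome, so values set against either are a description. Chromosome 15 stood at 0.15 for Rif1KO against WT and at 0.085 for Rif1KO_shLacZ against WT, the latter also inside the reference range. Chromosome 10 stood at -0.35 and -0.42, outside the range in both. The matched ISs were found in a table for which being called in WT or Rif1KO was required, and at the 511 called in all 4 groups Rif1KO against WT stood at 0.26. Both small shifts against WT changed sign there, to -0.034 in Rif1KO_shLacZ and -0.011 in Rif1KO_shMcm6. With at least 50% overlap between the matched ISs they were instead 0.059 and 0.090, so neither direction was settled.

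The higher density in Rif1KO ran over the whole chromosome. In 20 windows of 5 Mb, with 26 to 139 ISs each, every median was above 0, from 0.21 between 90 and 95 Mb to 0.47 between 60 and 65 Mb, and the 95% interval over ISs lay above 0 in 20 of 20. The windows between 60 and 75 Mb stood at 0.39 to 0.47 and those between 10 and 20 Mb at 0.25 and 0.29. Median GC content was 40.3% to 42.9% in the former and 47.9% and 44.6% in the latter, and its part in the course was not tested beyond the subtraction that follows. After the reference median for the GC content of each IS was subtracted, the window medians ran from 0.22 to 0.41. In windows of 10 Mb, both Rif1KO replicates had a larger share of their peaks than both WT replicates in 10 of 10 windows. The ratio of the means ran from 1.198 between 30 and 40 Mb to 2.19 between 70 and 80 Mb. Both Rif1KO replicates also exceeded both Rif1KO_shLacZ replicates in 10 of 10 windows. Rif1KO_shLacZ in turn was not at the level of WT in these peak shares, with both replicates above both WT replicates in 7 of 10 windows. The ratio of its mean to that of WT ran from 0.785 to 1.58, and was 1.27 or more in all 5 windows between 40 and 90 Mb. The Rif1KO_shLacZ replicates had 148713 and 153248 peaks in all, against 46818 and 46482 in WT. Windows of the reference autosomes were not set beside these, and the part of peak number in the ratios was not tested. In reads at the matched ISs, the window medians of Rif1KO_shLacZ against WT lay on either side of 0, from -0.18 to 0.10, and 13 of 20 were above 0.

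**Figure D4:**
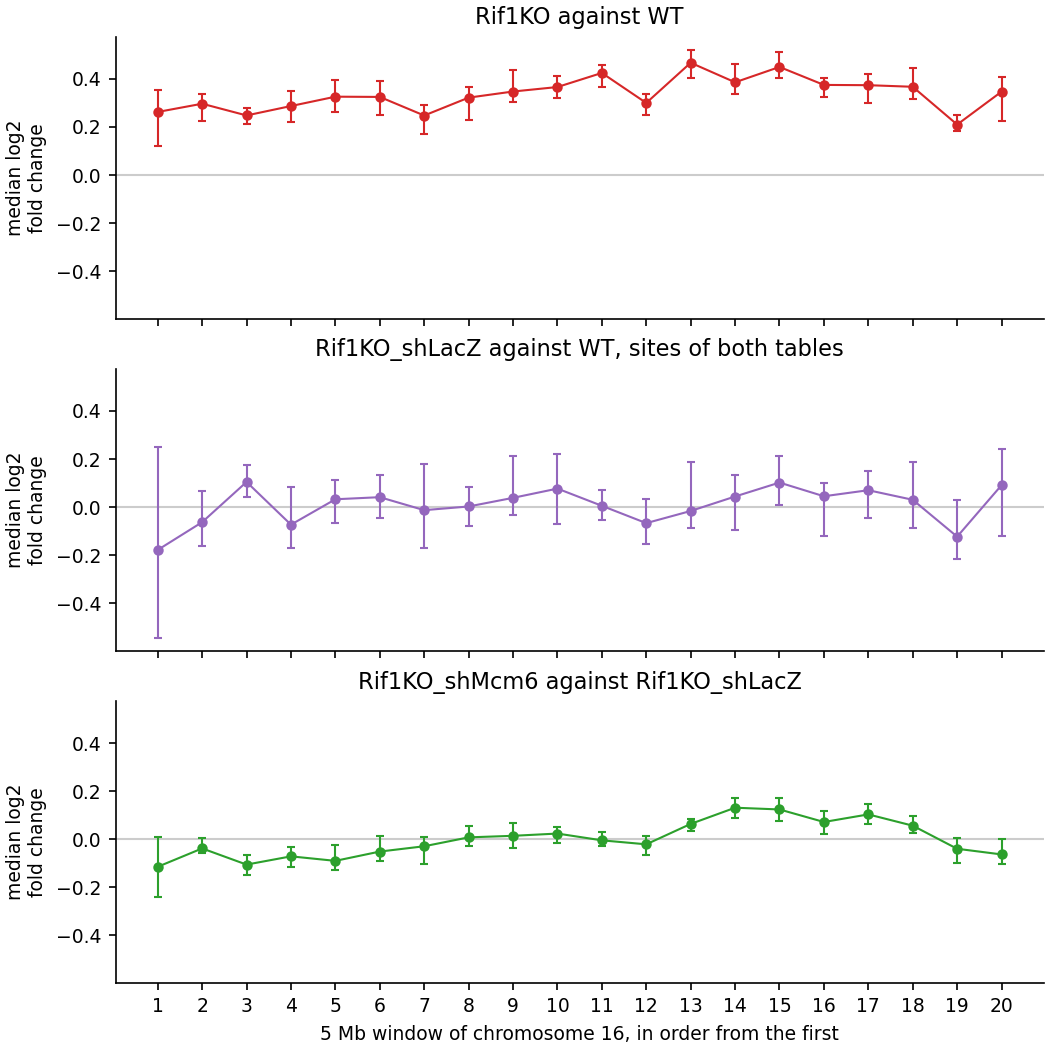
Median log2 fold change in 20 windows of 5 Mb along chromosome 16, for Rif1KO against WT (top), Rif1KO_shLacZ against WT at ISs of both tables, relative to the reference autosomes (middle), and Rif1KO_shMcm6 against Rif1KO_shLacZ (bottom). Bars are 95% order-statistic intervals over ISs. The upper course stays between 0.21 and 0.47, the middle one lies around 0, and the medians of the lower one are above 0 in windows 13 to 18 and below 0 at both ends, where 6 of 9 intervals include 0.

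The contrast of Rif1KO_shMcm6 against Rif1KO_shLacZ was not used in choosing the chromosome. As a whole, chromosome 16 did not stand apart in it. Its median log2 density was 2.67 in Rif1KO_shLacZ, the lowest of the 19 autosomes as in WT, and 2.72 in Rif1KO_shMcm6, and the median log2 fold change was 0.0091 (-0.0013 to 0.02), inside the range of the 16 reference autosomes (-0.04 to 0.03). On chromosome 16, 267 ISs (5.37%, Wilson 4.78% to 6.03%) were higher by over 1.5-fold, near the 4.82% of reference ISs and 4.8% of all ISs. Lower by over 1.5-fold were 55 (1.11%), against 1.5% and 1.51%. At the 1735 matched ISs the median relative to the reference autosomes was 0.049 (0.035 to 0.062), again inside their range (-0.03 to 0.06), and at the 511 called in all 4 groups it was 0.017. The matched ISs had a Spearman rho of 0.14 between their fold changes in both contrasts, which use different libraries, and the reference ISs one of 0.12.

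Within chromosome 16 the hairpin contrast varied with position. Between 60 and 90 Mb all 6 window medians were above 0, from 0.06 to 0.13, each with an interval above 0. Between 0 and 35 Mb all 7 were below 0, from -0.11 to -0.03, and the last 10 Mb gave -0.04 and -0.06. The interval included 0 in 6 of these 9 windows and lay below 0 in the 3 between 10 and 25 Mb. After the GC subtraction, the median between 30 and 35 Mb was 0.0072 and that between 90 and 95 Mb -0.00090. ISs with the fewest genes within 500 kb had a median of 0.07 and those with the most genes -0.04, and the reference autosomes gave 0.06 and -0.07. Intergenic ISs stood at 0.03 and genic ones at -0.03. The 133 promoter ISs had a median of 0.04 (-0.07 to 0.08), where the 4930 reference promoter ISs had -0.04.

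Among the 2322 chromosome 16 ISs at or above the median density of the hairpin table, the 3 with the highest fold change in Rif1KO_shMcm6 held purine repeats, and those of rank 1 and rank 3 are printed to show them. Capitals mark GGA repeated at least 2 times.
Rank 1, chr16:63833410-63833609, plus strand: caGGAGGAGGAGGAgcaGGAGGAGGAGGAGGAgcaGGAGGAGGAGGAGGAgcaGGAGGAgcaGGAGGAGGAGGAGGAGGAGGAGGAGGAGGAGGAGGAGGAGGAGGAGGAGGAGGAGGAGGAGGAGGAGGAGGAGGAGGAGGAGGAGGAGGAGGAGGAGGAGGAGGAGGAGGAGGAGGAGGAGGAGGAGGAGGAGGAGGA
Rank 3, chr16:72502971-72503170, minus strand: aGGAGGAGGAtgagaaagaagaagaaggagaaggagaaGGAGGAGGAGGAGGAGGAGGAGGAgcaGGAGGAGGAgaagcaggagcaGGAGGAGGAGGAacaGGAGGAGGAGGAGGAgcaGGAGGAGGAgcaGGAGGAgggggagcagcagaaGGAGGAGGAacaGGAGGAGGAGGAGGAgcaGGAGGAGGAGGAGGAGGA
The first, in an intron of Epha3, which encodes an ephrin receptor, at 63833382 to 63834317, held 80 Rif1KO_shLacZ and 439 Rif1KO_shMcm6 reads, or 1.92 and 4.22 log2 RPM (2.29 ± 0.18, counting SE). Beside it in the same intron an IS at 63832224 to 63833066 held 96 and 336 reads (1.64 ± 0.17). An intergenic IS 159864 bp from the TSS of Robo1, an axon guidance receptor, at 72502960 to 72503530, held 100 and 338 reads (1.59 ± 0.16). None of these 3 places had an IS in the Rif1KO table. Among those 2322 ISs, 2 of the 3 with the lowest fold change are given. One 106 bp from the TSS of Brwd1 held 240 and 159 reads (-0.76 ± 0.15), and one 3900 bp from the TSS of Mrps6 held 182 and 125 reads (-0.71 ± 0.17). The densest ISs of the hairpin table stood at -0.12 ± 0.07 near Ifnar1 (962 and 993 reads), -0.14 ± 0.07 in Dopey2 over exon and intron sequence (823 and 839 reads) and -0.12 ± 0.08 in an intron of Kcnj6 (674 and 694 reads). All 3 lay within 2 counting SEs of 0.

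The repeat was then counted over all chromosome 16 ISs, a search set up after these sequences were seen. GGA repeated 6 times in a row, on either strand, occurred in 85 of 4972 ISs (1.71%) and in 0.382% of windows 5 kb away. Of the 85, 24 (28.2%, Wilson 19.8% to 38.6%) were higher by over 1.5-fold in Rif1KO_shMcm6, against 4.97% of the chromosome 16 ISs without the repeat. The reference autosomes, which had no part in finding the repeat, gave 22.2% of 1583 ISs with it and 4.56% without it. Lower by over 1.5-fold were 3.53% of the ISs with the repeat (3 of 85) and 1.06% of those without it on chromosome 16, and 2.53% and 1.48% on the reference autosomes. For GA repeated 12 times in a row the shares on chromosome 16 were 22.8% of 158 ISs and 4.80% of the rest, and on the reference autosomes 15.8% of 3151 and 4.49%. ISs with GGA repeats were thinner in Rif1KO_shLacZ, with a median log2 density of 2.34, and 38.8% of them were called in Rif1KO_shMcm6 only, against 24.0% of the others. Among the 45 called in both groups 4.44% were higher by over 1.5-fold, where 1.41% of all chromosome 16 ISs called in both were. In Rif1KO against WT only 6 chromosome 16 ISs held the GGA repeat, with a median of 0.35 against 0.33. A match of letters is a description and names no factor.

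Genes of chromosome 16 were followed through 3 lists, of replication and repair, B cell and long genes, by the summed reads of the ISs in the gene or within 1 kb. In Rif1KO, 7 of 14 replication and repair genes had an IS, and all 7 were above 0, with a median log2 fold change of 0.33, near the 92.6% of ISs above 0 and the median of 0.33 over all chromosome 16 ISs. The other lists below also lay near that background. Prkdc, the catalytic subunit of the DNA-dependent kinase of end joining, had 443 WT and 629 Rif1KO reads over 7 ISs (0.35 ± 0.09, counting SE). Parp14, an ADP-ribosyltransferase, had 161 and 225 reads (0.33 ± 0.15). The other 5, Cdc45 of the replicative helicase, the polymerase gene Polq, the nuclease gene Ercc4, the ubiquitin protease gene Usp7 and Parp9, stood at 0.05 to 0.57, each within 2 counting SEs of 0. Mcm4, a partner of MCM6 in the helicase, had no IS in either table.

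Of 21 B cell genes, 11 had an IS in the Rif1KO table and 10 of these were above 0, with a median of 0.33, the same as over all chromosome 16 ISs. Lpp, a LIM domain gene next to Bcl6, went from 811 to 1222 reads over 14 ISs (0.44 ± 0.07), and 6 of its ISs were higher by over 1.5-fold, where 14.4% of all chromosome 16 ISs were. The sialyltransferase gene St6gal1 stood at 0.35 ± 0.10 and the transcription factor gene Runx1 at 0.33 ± 0.12. Nearer 0 were Crebbp, a histone acetyltransferase gene (0.07 ± 0.09), and Ciita, the activator of MHC class II genes (0.09 ± 0.13). Ifnar1, an interferon receptor subunit, had 181 and 186 reads and was the one gene of the list below 0 (-0.11 ± 0.15).

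Long genes carried the most ISs. In Rif1KO, 16 of 19 had an IS, 15 were above 0, and the median was 0.34. Over all chromosome 16 ISs, 92.6% were above 0 and the median was 0.33. The ephrin receptor gene Epha6 went from 1567 to 2388 reads over 25 ISs (0.45 ± 0.05). The adhesion genes Dscam (0.44 ± 0.06), Ncam2 (0.41 ± 0.08), Lsamp (0.38 ± 0.07) and Cadm2 (0.33 ± 0.06) were close to it. Kcnj6, a potassium channel gene, was lower at 0.17 ± 0.05, and Dlg1 stood at -0.0073 ± 0.15. Robo2 was the highest, from 133 to 229 reads over 2 ISs (0.63 ± 0.16).

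In Rif1KO_shMcm6 against Rif1KO_shLacZ the lists had medians of 0.03, 0.04 and 0.01, and their genes lay on both sides of 0. The SD of log2 fold change over all chromosome 16 ISs was 0.32, and counting SEs do not cover that spread. Epha3 was highest, from 1822 to 2880 reads over 16 ISs (0.50 ± 0.04), but 2 of the 16 held GGA repeats. Without these it had 1646 and 2105 reads (0.19 ± 0.05). Ncam2 (0.25 ± 0.03), Lsamp (0.21 ± 0.03) and Cadm2 (0.21 ± 0.03) were above 0 too. Ncam2 and Cadm2 also held GGA repeats, and without those ISs they stood at 0.24 ± 0.03 and 0.18 ± 0.03, near Epha3. By contrast, Epha6 stood at -0.02 ± 0.02 over 67 ISs and Dscam at -0.02 ± 0.03. Zbtb20, a transcription factor gene, stood at -0.11 ± 0.03, Kcnj6 at -0.08 ± 0.03 and the glutamate receptor gene Grin2a at -0.20 ± 0.07. Of the 13 B cell genes with an IS, 8 were above 0. Litaf (-0.31 ± 0.08) and Crebbp (-0.18 ± 0.05) lay below 0, and Ciita (0.12 ± 0.05) and Bcl6 (0.20 ± 0.10) above. Without its 1 IS with a GGA repeat, Ciita stood at 0.20 ± 0.06. Of the 8 replication and repair genes with an IS, 5 were above 0, where 51.2% of all chromosome 16 ISs were. Polq stood at 0.18 ± 0.07 and Prkdc at -0.01 ± 0.05.

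**Figure D5:**
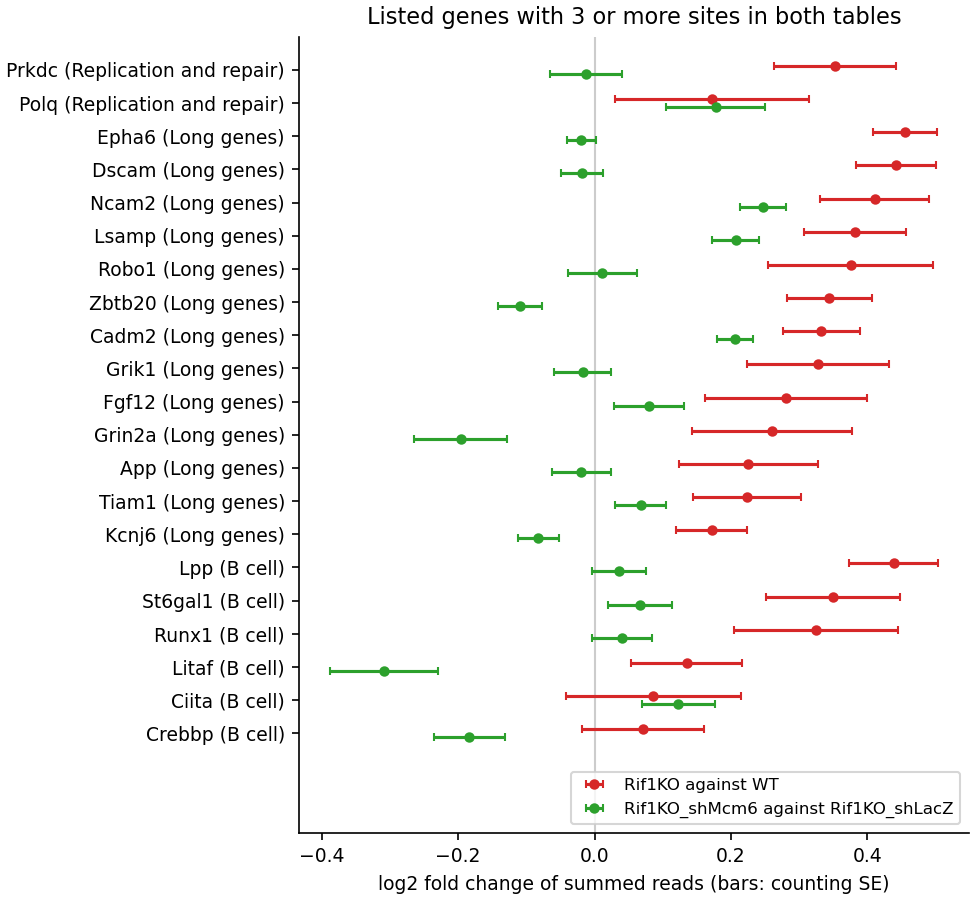
Log2 fold change of the summed reads of each gene of the 3 lists with 3 or more ISs in both tables, with counting SEs (bars). The red points, Rif1KO against WT, run from 0.07 at Crebbp to 0.45 at Epha6, and the green points, Rif1KO_shMcm6 against Rif1KO_shLacZ, run from -0.31 at Litaf to 0.25 at Ncam2.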

How the data were processed

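SNS-seq was done in 8 libraries of CH12 cells, 2 per group. Per the labels and the study's methods, the authors trimmed reads (Trim Galore 0.6.4, cutadapt 2.6), aligned them to mm9 keeping unique alignments (Bowtie 1.2.3), called peaks per replicate with MACS without input, intersected replicates, kept clustered peaks and merged the lists of each pair of groups with bedtools. The deposited values are log2 RPM, scaled within each table to the reads inside its ISs, with replicates pooled. All values were whole multiples of 1 read (tolerance 0.01), so reads were recovered: 3350255 (WT), 3724571 (Rif1KO), 21071351 (Rif1KO_shLacZ) and 23602750 (Rif1KO_shMcm6). The deposited column of the authors' fold-change category was not used. Gene context and sequence came from the NCBIM37 genome, which is mm9, and its GENCODE annotation. Medians carry 95% order-statistic intervals and shares Wilson intervals. They cover counting error or spread over ISs only, and PCR copies are not independent. Python 3.11.15, pandas and scipy were used, and functions were tested on simulated data. Members, gene lists and comparisons were chosen with earlier results of these data known. Named ISs were, per table, the 3 densest and the 3 highest and 3 lowest by fold change among ISs at or above the median density, of which 1 locus is not reported here. Of gene lists, the 8 genes with the most hairpin-table ISs could be given values, and the rest were counted. Genes outside that rule (Robo2, Dlg1, Grin2a, Ifnar1, Bcl6 and those that are only plotted) and the sequence motifs were chosen after their values were seen.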

Additional observations from a re-analysis of the deposited data

How the results depend on the processing

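No paired analysis of the merged tables was possible because their values come from no test and hold 1 pooled value per group, so nothing could be left out there. The peaks of single replicates do give library values. Leaving out each library in turn, the chromosome 16 share in Rif1KO over WT (1.61) ran from 1.58 to 1.63, and that in Rif1KO_shMcm6 over Rif1KO_shLacZ (1.01) from 1.0039 to 1.011. As a replicate block, the mean log ratio of equal replicate numbers gave 1.61 and 1.01, although no source used here says that the numbers pair the libraries. A stricter peak threshold was not run, since the lists used here carry no score.

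The chromosome 16 median minus the reference median in Rif1KO against WT (0.32) stayed above 0 in every setting tried. It was 0.31 without the lowest quartile of densities, 0.31 with log2(RPM + 1) and 0.26 at ISs called in both groups. The share higher by over 1.5-fold moved from 14.4% to 0.552% at 2-fold, 52.3% at a log2 fold change of 0.32, 10.4% without the lowest quartile, 11.96% with log2(RPM + 1), 3.77% at ISs called in both and 0.966% with the chromosome median at 0. The share lower moved from 0.138% to 0% at 2-fold and at ISs called in both, 0.690% at 0.32 and 1.06% with the chromosome median at 0. For Rif1KO_shMcm6 against Rif1KO_shLacZ the median moved in no setting, the share higher became 1.11%, 15.7%, 3.09%, 3.36% and 1.41% in the first 5 of those settings, and the share lower 0.0402%, 9.55%, 0.629%, 0.402% and 0.523%.

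With 50% overlap, shares of reads were 4.71%, 5.86%, 5.0003% and 5.12% in WT, Rif1KO, Rif1KO_shLacZ and Rif1KO_shMcm6. Without the densest 1% they were 4.64%, 5.76%, 4.77% and 4.88%, and over all ISs of its own table each group had 4.57%, 5.69%, 3.64% and 3.69%. Shifts with 50% overlap were 0.059 and 0.090 (Rif1KO_shLacZ and Rif1KO_shMcm6 against WT) and -0.27 and -0.23 (against Rif1KO), and Rif1KO against WT was 0.31 without the lowest quartile. At ISs called in all 4 groups, a setting chosen after seeing the data, Rif1KO against WT was 0.26, Rif1KO_shMcm6 against Rif1KO_shLacZ fell from 0.049 to 0.017, and both signs against WT turned, to -0.034 (Rif1KO_shLacZ) and -0.011 (Rif1KO_shMcm6). The range of window medians was 0.19 in 10 Mb windows for Rif1KO against WT. With 50% overlap, 88.9% of WT ISs overlapped Rif1KO and 59.5% Rif1KO_shLacZ, 67.2% of Rif1KO ISs overlapped Rif1KO_shLacZ, 37.4% and 12.2% of Rif1KO_shLacZ ISs overlapped Rif1KO and WT and 81.5% Rif1KO_shMcm6, and 69.2% of Rif1KO_shMcm6 ISs overlapped Rif1KO_shLacZ. The GC subtraction and the settings for GGA repeats were also chosen after seeing the data. The share of GGA repeat ISs higher by over 1.5-fold in Rif1KO_shMcm6 (28.2%) was 23.5% with 4 repeats, 33.3% with 8, 22.6% without the lowest quartile of densities and 4.44% at ISs called in both groups. The causes of these moves were not tested.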
